A study of Homo sapiens with 9 samples.

Results

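The genes described here are APP, BACE1, BACE2, ADAM10, PSEN2, SORL1, APOE, CLU and MAPT, chosen by name as genes of amyloid processing and neurodegeneration risk. All 9 are among the 61544 genes listed, and 8 of them are among the 14727 genes that passed the expression filter. MAPT did not pass. PSEN2 passed only through its level in SLO, where all 3 libraries reached the 0.608 CPM (counts scaled to library size) that the filter asked for, against 1 library each in VEH and SLO ½. APOE passed through the treated groups, with 1 VEH library at that level, so counts over the tested genes describe them and are no evidence about the set.

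RNA was measured in HMC3 cells, human microglia immortalized with the SV40 T antigen, after 6 days of exposure. SLO cells received 10 µM SBI-0206965, an autophagy inhibitor, with 1 µM Lopinavir, which interferes with Lamin A maturation, and 1 µM O-151, which inhibits a DNA glycosylase. In SLO ½ these doses were 5, 0.5 and 0.5 µM, and VEH cells received DMSO alone. All cells carried the genotype labelled WT and came from a single line, and each group had 3 libraries, whose labels do not say whether they came from separate cultures.

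Amyloid-β is cut from the membrane protein APP by a β-secretase, BACE1 being the main one in brain, followed by γ-secretase, whose catalytic subunit is a presenilin. Cleavage by the α-secretase ADAM10 falls inside the amyloid-β stretch and so precludes its release, and SORL1 is a sorting receptor that steers APP away from the compartments where it is cut. APOE and clusterin (CLU) are secreted carriers of lipid that bind amyloid-β, tau (MAPT) is a microtubule-binding protein, and APOE in brain is made mostly by astrocytes and by activated microglia.

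Libraries held 14834295 to 19674841 reads assigned to genes. The values below are CPM, for changes of a gene between groups, and the deposited TPM, which take gene length into account, for levels compared between genes. Changes are log2 fold changes of CPM from edgeR's quasi-likelihood test over all 9 libraries, with Benjamini-Hochberg adjusted p called below 0.05. Both doses were compared with the same VEH libraries, so their results are not independent. Of the 16 microglia and macrophage markers, 10 had at most 3 counts in every library, among them AIF1, CX3CR1, P2RY12, TMEM119, PTPRC and TYROBP. The summed TPM of that marker list was lowest in VEH (137 to 156), against 166 to 182 (SLO ½) and 178 to 198 (SLO), and its part in the results was not tested.

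Against VEH, SLO raised 7 of the 8 tested genes and lowered BACE2. In the whole transcriptome 64.9% of tested genes were called in this comparison, 32.9% higher and 32.1% lower. SLO ½ raised APP, BACE1, APOE and CLU and lowered BACE2, 5 genes called where 52.0% of all tested genes were (26.7% higher, 25.3% lower). Between the doses, CLU, BACE1, ADAM10 and APOE were higher in SLO and BACE2 was lower, again 5 genes, with 41.1% of all tested genes called (20.8% higher, 20.3% lower). The sizes ranged widely. APOE, CLU, BACE1 and BACE2 moved by at least 1 log2 unit in SLO, as did 11.9% of all tested genes, whereas the changes of APP and ADAM10 were below the median absolute change of all genes, 0.338.

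**Figure D1:**
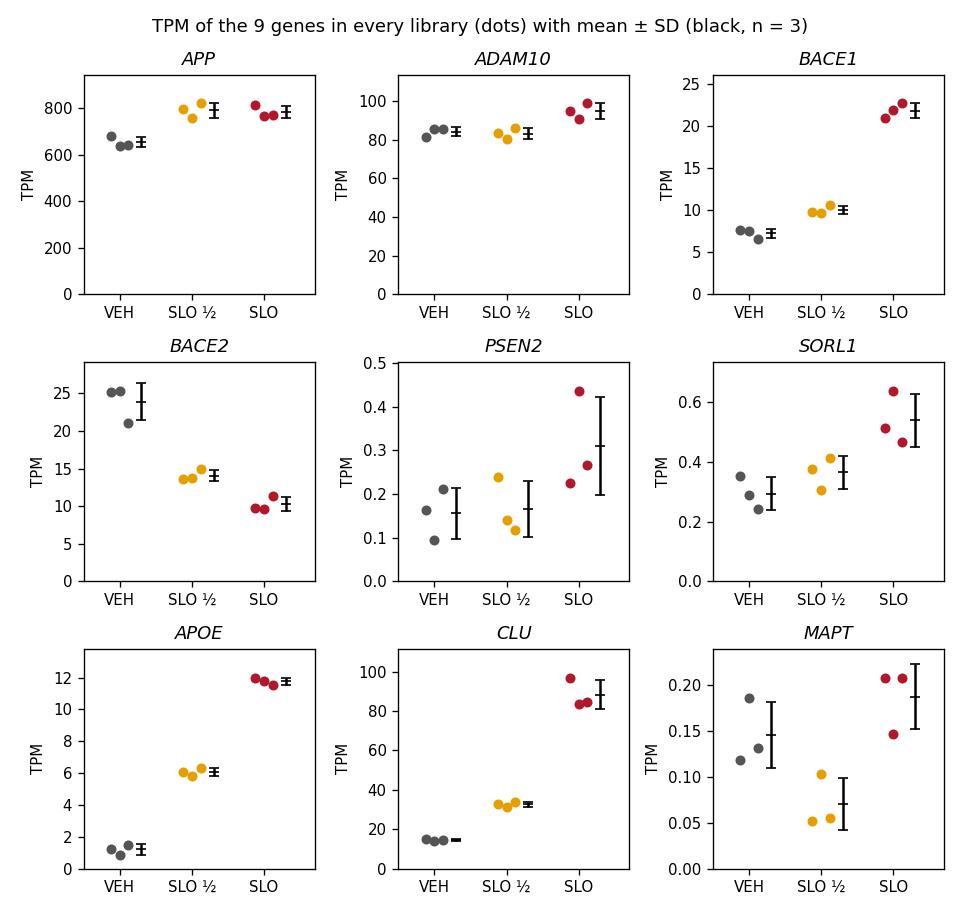
TPM (vertical axes, linear, starting at 0) of the 9 genes in each library of VEH, SLO ½ and SLO, as dots, with the mean ± SD of 3 libraries in black. APOE, CLU and BACE1 climb over the 3 groups without overlap and BACE2 descends, while PSEN2 and MAPT lie below 0.5 TPM in every library.

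The region upstream of the transcription start is shown for BACE1 and APOE, members that changed by more than 1 log2 unit and whose starts are in the RefSeq promoter table used (GRCh38.p14), which matched 6 of the 9 genes. BACE2, CLU and MAPT were not matched. Each line gives the 250 bases before the start, read 5′ to 3′ on the strand of the gene, at chr11:117316257-117316506 (minus strand) for BACE1 and chr19:44905546-44905795 (plus strand) for APOE.
BACE1: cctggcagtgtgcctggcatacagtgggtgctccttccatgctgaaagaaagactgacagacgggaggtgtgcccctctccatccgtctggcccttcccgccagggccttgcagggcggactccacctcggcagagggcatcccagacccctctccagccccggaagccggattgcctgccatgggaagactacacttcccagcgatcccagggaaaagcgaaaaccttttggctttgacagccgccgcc
APOE: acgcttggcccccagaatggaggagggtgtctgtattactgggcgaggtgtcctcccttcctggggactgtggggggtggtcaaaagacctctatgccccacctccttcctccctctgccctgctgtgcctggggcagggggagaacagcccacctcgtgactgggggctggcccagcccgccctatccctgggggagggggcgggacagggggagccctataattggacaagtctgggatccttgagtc
Their GC content was 62.8% and 64.8%, with a median of 58% and quartiles of 46.4% and 68% over all 35116 promoters of the table. Windows of 250 bases before to 50 after the start were searched on both strands for the E-box CACGTG, the AP-1 letters TGANTCA, the interferon response letters GAAANNGAA and the heat shock letters GAANNTTC. None of these was present in the BACE1 or APOE window, so no letters are in capitals. They occur in 7.26%, 7.71%, 8.11% and 6.77% of all promoters. An E-box lay in the windows of ADAM10 and SORL1 and the AP-1 letters in that of APP, just after the start. A match or its absence is a description of these letters alone.

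APP, the substrate, lies on chromosome 21 (25880550 to 26171128, minus strand) and was the most abundant of the 9 genes in every group. Its CPM was 922, 855 and 860 in the VEH libraries, 1093, 1064 and 1123 in SLO ½, and 1095, 1034 and 1043 in SLO. All 6 treated libraries were above the VEH libraries, and the doses overlapped. The change was 0.27 (SE 0.0415, edgeR adjusted p = 2.11e-06) in SLO and 0.31 (SE 0.0415, adjusted p = 2.7e-07) in SLO ½, folds of 1.20 and 1.24. SLO was not called against SLO ½ (fold 0.968, 95% interval 0.912 to 1.03, adjusted p = 0.38). In bulk RNA such a change cannot be divided between cells that express a gene and RNA per cell.

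BACE1, the principal β-secretase, lies on chromosome 11 (117285232 to 117316259, minus strand). Its CPM was 14.2, 13.7 and 12.1 in VEH, 18.4, 18.8 and 19.9 in SLO ½ and 38.9, 40.6 and 42.2 in SLO. The 3 groups did not overlap, and most of the increase lay between the doses. SLO exceeded VEH 3.05-fold (95% interval 2.75 to 3.38), or 1.61 on the log2 scale (SE 0.0725, edgeR adjusted p = 1.67e-17). SLO ½ exceeded VEH 1.43-fold (adjusted p = 3.53e-06), and SLO exceeded SLO ½ 2.13-fold (adjusted p = 2.37e-13).

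BACE1-AS, an RNA transcribed from the opposite strand over BACE1, went the other way against VEH. Its CPM fell from 8.88 ± 0.515 (SD, n = 3) in VEH to 4.61 ± 0.436 in SLO ½ and 5.84 ± 0.37 in SLO. The log2 change was −0.94 in SLO ½ (edgeR adjusted p = 1.78e-07) and −0.61 in SLO (adjusted p = 5.21e-05), and SLO lay above SLO ½ by 0.34 (adjusted p = 0.0411). RNF214 and CEP164 also overlap BACE1 on the other strand, with 468 to 1027 counts per library. The deposited counts are labelled stranded, though the text used here does not state which orientation was counted. The 3 genes opposite APP had at most 2 counts in libraries with at least 13028 for APP.

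BACE2, a homologue of BACE1 that can also cut inside the amyloid-β stretch, lies on chromosome 21 (41167801 to 41282530, plus strand). Its CPM was 51.9, 51.7 and 42.9 in VEH, 28.4, 29.4 and 31.1 in SLO ½ and 20.0, 19.9 and 23.3 in SLO. Every treated library was below every VEH library, and the doses did not overlap. The level in SLO was 0.432 of that in VEH (95% interval 0.388 to 0.481, log2 change −1.21, edgeR adjusted p = 2.67e-14). In SLO ½ it was 0.609 of VEH (adjusted p = 1.44e-09), and SLO was 0.709 of SLO ½ (adjusted p = 1.07e-05).

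The transcripts of BACE1 and BACE2 thus changed places. Per length, BACE1 stood at 0.303 ± 0.00965 of BACE2 in VEH (SD of the TPM ratio, n = 3), at 0.711 ± 0.00506 in SLO ½ and at 2.14 ± 0.128 in SLO. Over the libraries it spanned 0.294 to 0.313 (VEH), 0.707 to 0.717 (SLO ½) and 2.01 to 2.26 (SLO), with no overlap. The exact two-sided permutation test gave p = 0.1 for each pair of groups, the smallest that 3 against 3 allows (adjusted p = 0.105 over 21 tests of 7 ratios). These ratios were chosen after the levels had been seen and describe them.

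ADAM10, the α-secretase of APP, lies on chromosome 15 (58588809 to 58749791, minus strand). It was at 279, 289 and 290 CPM in VEH, 290, 286 and 297 in SLO ½ and 324, 310 and 338 in SLO. The SLO libraries were above all others, by a small margin. SLO exceeded VEH 1.13-fold (95% interval 1.07 to 1.20, edgeR adjusted p = 0.000279) and SLO ½ 1.11-fold (adjusted p = 0.00241). SLO ½ was not called against VEH, where the interval of the fold was 0.961 to 1.08 (adjusted p = 0.638). Relative to APP, ADAM10 TPM was 0.129 ± 0.00797 (VEH), 0.105 ± 0.000888 (SLO ½) and 0.121 ± 0.00587 (SLO). VEH and SLO overlapped in this ratio (exact permutation p = 0.2). SLO ½ lay below both without overlap (exact permutation p = 0.1 against each, the smallest possible).

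**Figure D2:**
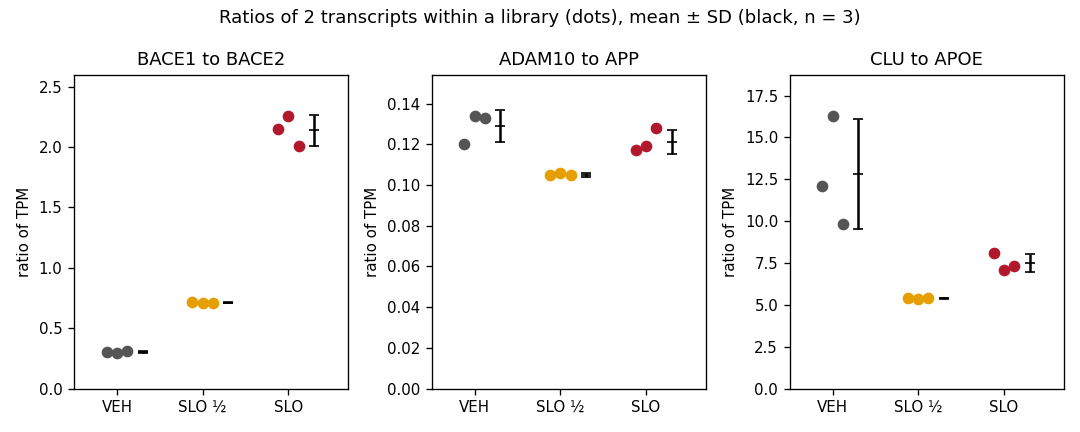
Ratio of the TPM of BACE1 to BACE2, ADAM10 to APP and CLU to APOE in each library of VEH, SLO ½ and SLO, as dots on linear axes from 0, with the mean ± SD of 3 libraries in black. BACE1 goes from 0.303 of BACE2 in VEH to 2.14 times it in SLO. ADAM10 to APP lies between 0.105 and 0.134 in all 9 libraries, with SLO ½ below the other groups.

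PSEN2, a catalytic subunit of γ-secretase on chromosome 1 (226870184 to 226927726, plus strand), was close to the limit of detection. Its counts were 9, 5 and 14 in VEH, 15, 9 and 7 in SLO ½ and 13, 26 and 14 in SLO. In CPM the SLO libraries were above the VEH libraries, the nearest at 0.787 and 0.731, and overlapped those of SLO ½. The change in SLO was 0.96 (SE 0.362, edgeR adjusted p = 0.0221). It was not called by DESeq2 (adjusted p = 0.073) or by limma on log2(TPM + 1) (adjusted p = 0.142), nor when VEH replicate 2 (0.72, adjusted p = 0.101) or replicate 2 of SLO (0.61, adjusted p = 0.199) was left out. SLO ½ against VEH gave 0.10 with a fold interval of 0.601 to 1.91 (adjusted p = 0.854), and SLO against SLO ½ 0.86 (adjusted p = 0.0527).

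SORL1, the APP sorting receptor on chromosome 11 (121452314 to 121633763, plus strand), was also sparse. It had 23, 18 and 19 counts in VEH, 28, 23 and 29 in SLO ½ and 35, 45 and 29 in SLO. Scaled to CPM, the SLO libraries (1.93 to 2.65) were above VEH (0.992 to 1.46), with SLO ½ between and overlapping VEH. The SLO level was 1.87-fold that of VEH (95% interval 1.33 to 2.61, edgeR adjusted p = 0.00155). The call was lost in limma on log2(TPM + 1) without a filter (adjusted p = 0.0881). SLO ½ was not called against VEH (fold interval 0.898 to 1.84, adjusted p = 0.236), nor SLO against SLO ½ (1.06 to 1.99, adjusted p = 0.0555).

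APOE, the lipoprotein whose common alleles are the strongest inherited risk factor for late-onset Alzheimer disease, lies on chromosome 19 (44905791 to 44909393, plus strand). Its counts were 9, 6 and 13 in VEH, 50, 49 and 49 in SLO ½ and 91, 92 and 80 in SLO. The groups were far apart compared with their spread, from 0.548 ± 0.144 CPM (SD, n = 3) in VEH to 2.86 ± 0.0688 in SLO ½ and 5.41 ± 0.0947 in SLO. SLO was 9.59-fold above VEH (95% interval 7.04 to 13.1, log2 change 3.26, edgeR adjusted p = 1.22e-13). SLO ½ was 5.07-fold above VEH (interval 3.57 to 7.18, adjusted p = 4.42e-09), and SLO 1.89-fold above SLO ½ (adjusted p = 1.65e-05). The 3 VEH libraries held 28 counts of APOE together, against 148 in SLO ½ and 263 in SLO. APOE rose by more log2 units in SLO than 99.4% of tested genes changed in either direction. Because APOE passed the filter through the treated groups and had few counts in VEH, this rank is a description.

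CLU, a secreted chaperone and lipid carrier, lies on chromosome 8 (27596917 to 27614700, minus strand). It was at 20.2, 18.8 and 19.5 CPM in VEH, 44.9, 43.7 and 46.1 in SLO ½ and 130.0, 112.2 and 113.6 in SLO. No 2 groups overlapped, and SLO replicate 1 was the highest of its group. The increase was 6.07-fold in SLO (95% interval 5.56 to 6.63, log2 change 2.60, edgeR adjusted p = 4.82e-24) and 2.30-fold in SLO ½ (adjusted p = 8.65e-15). Between the doses CLU differed 2.64-fold (adjusted p = 1.05e-17). By p, it ranked 14 of 14727 in SLO against VEH and 5 in SLO against SLO ½.

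CLU and APOE divided their change differently between the doses. SLO ½ reached 2.34 of the 3.26 log2 units of APOE but 1.20 of the 2.60 of CLU. CLU per unit of APOE, in TPM, accordingly went from 12.8 ± 3.28 in VEH (9.86 to 16.3) to 5.39 ± 0.0356 in SLO ½ and 7.50 ± 0.517 in SLO. No 2 groups overlapped in this ratio (exact permutation p = 0.1, the smallest possible).

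Summed TPM of the astrocyte marker list was lowest in VEH (281 to 284) and highest in SLO (523 to 577), with SLO ½ at 399 to 439 and with AQP4 at no more than 3 counts in any library. GFAP, the usual marker of astrocytes, had 0 to 5 counts. The oligodendrocyte lineage list summed to 21.4 to 24.2, 36.6 to 40.7 and 41.9 to 47.0 TPM, and 5 of its 9 genes had at most 3 counts, MOG, MAG and SOX10 among them. Called higher in SLO were 4 of 5 tested astrocyte markers, with 1 lower, and 1 of 4 tested oligodendrocyte lineage markers. Of 7 tested fibroblast and mural cell markers 5 rose in SLO and 2 fell, with a median log2 change of 0.39. Among all tested genes 32.9% were called higher in SLO and 32.1% lower. ACTA2, a smooth muscle actin, rose from 4.26 ± 0.386 TPM in VEH to 72.2 ± 6.21 in SLO (edgeR adjusted p = 1.15e-23), and TAGLN rose 3.35-fold (adjusted p = 4.82e-24). The summed TPM of this list nevertheless was highest in VEH (7310 to 8430), against 6540 to 6900 (SLO ½) and 6360 to 6610 (SLO), since FN1, its most abundant gene, fell from 6077 ± 456 TPM in VEH to 3301 ± 117 in SLO (adjusted p = 3.04e-15). The part of these marker genes in the rise of APOE and CLU was not tested.

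MAPT, which encodes tau on chromosome 17 (45894527 to 46028334, plus strand), was barely detected. Its counts were 6, 9 and 8 in VEH, 3, 6 and 3 in SLO ½ and 11, 8 and 10 in SLO. In CPM, SLO ½ (0.170 to 0.343) was below both VEH (0.381 to 0.591) and SLO (0.471 to 0.666). With no expression filter, edgeR gave a log2 change of −0.98 in SLO ½ (adjusted p = 0.191) and 0.36 in SLO (adjusted p = 0.574) against VEH. SLO against SLO ½ gave 1.34 with adjusted p = 0.0396, which rests on 29 against 12 counts and was not called by limma on unfiltered log2(TPM + 1) (adjusted p = 0.148).

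**Figure D3:**
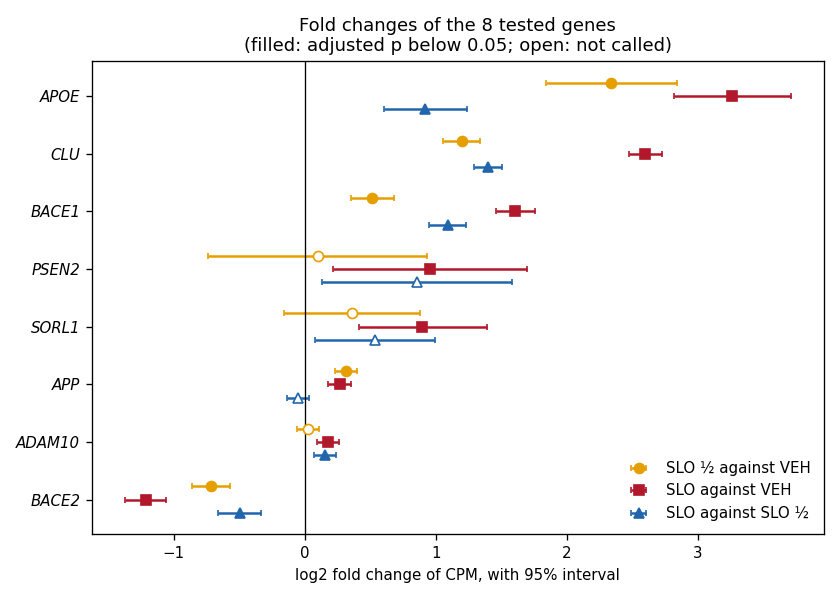
Log2 fold change of CPM (horizontal axis) of the 8 tested genes in SLO ½ against VEH, SLO against VEH and SLO against SLO ½, with 95% intervals from the edgeR fit of 3 libraries a group. Filled symbols have an adjusted p below 0.05 and open symbols do not, and the intervals of PSEN2, SORL1 and APOE are the widest.

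Ordered by TPM, VEH cells had APP first at 655 ± 23.3, then ADAM10 (84.2 ± 2.34), BACE2 (23.9 ± 2.45), CLU (14.6 ± 0.477), BACE1 (7.22 ± 0.552), APOE (1.20 ± 0.315) and SORL1 (0.293 ± 0.0552). PSEN2 (0.156 ± 0.0584) and MAPT (0.145 ± 0.0356) came last, with overlapping libraries. In SLO ½ CLU (32.7 ± 1.34) had passed BACE2 (14.1 ± 0.73). In SLO, APP stood at 784 ± 25.4, and ADAM10 (94.9 ± 4.01) and CLU (88.3 ± 7.45) overlapped behind it. BACE1 (21.8 ± 0.869) and APOE (11.8 ± 0.216) then both exceeded BACE2 (10.2 ± 0.925), and SORL1 (0.538 ± 0.0897), PSEN2 (0.309 ± 0.112) and MAPT (0.187 ± 0.035) again closed the order.

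For the members that changed by at least 1 log2 unit in SLO, the genes of most similar pattern were sought by the root mean square difference of centred log2 CPM over the 9 libraries. CLU was nearest to SOX4 (0.101 log2 units), followed by ATP1B2 and NPTXR, and BACE1 to LTBP1 (0.107), followed by PRUNE2 and MMP24. APOE was nearest to NAALAD2 (0.162), TNFRSF21 and ACTC1. BACE2 was nearest to KIRREL3 (0.0644), UFSP2 and DIAPH2, which fell with it. Each search covered 10941 or 10942 genes whose mean log2 CPM was 2 or more, and a near pattern is a description only.

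Related genes were counted in lists by role. Beside every count below, 64.9% of all tested genes were called in SLO, 32.9% higher and 32.1% lower. In SLO ½ 52.0% were called, 26.7% higher and 25.3% lower. The counts describe the lists and were not tested against these shares. Of the APP family and APP-binding adaptors, 7 of 12 tested genes rose in SLO and 2 fell (8 and 0 with library size only), and in SLO ½ 5 rose and 1 fell. APLP2, a homologue of APP, went from 542.5 ± 17.9 CPM in VEH to 851 ± 13.0 in SLO ½ and 1419 ± 58.2 in SLO, a log2 change of 1.39 in SLO (edgeR adjusted p = 1.25e-21). APLP1, the other homologue, rose 3.19-fold in SLO (adjusted p = 6.25e-19), and ITM2B, a membrane protein that binds APP, 2.02-fold (adjusted p = 1.36e-18). Both homologues thus rose by more than the 1.20-fold of APP, although the difference between genes was not tested.

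Among γ-secretase subunits, their partners and other α-secretases, 6 of 13 tested genes rose in SLO and 4 fell. In SLO ½ 3 rose and 5 fell (3 and 3 with library size only), and 5 in all were called without VEH replicate 1 or without SLO ½ replicate 2. TSPAN5, a tetraspanin that helps ADAM10 to the cell surface, fell from 98.1 ± 5.23 to 80.6 ± 2.93 and 69.2 ± 1.53 CPM (log2 change in SLO −0.51, edgeR adjusted p = 2.02e-10). ADAM9, another α-secretase, fell to 0.753 of VEH in SLO (adjusted p = 3.05e-10) and APH1A, a γ-secretase subunit, to 0.767 (adjusted p = 1.14e-07).

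Of the genes of APP sorting, retromer and endocytosis, 6 of 19 rose and 9 fell in SLO, and 4 rose and 7 fell in SLO ½. The direction of this balance turned with library size only, 7 higher and 6 lower in SLO and 6 and 4 in SLO ½. SORT1, a receptor of the same family as SORL1, rose 1.56-fold in SLO (edgeR adjusted p = 4.95e-13), from 174 ± 3.65 to 271 ± 16.3 CPM. The sorting nexins SNX5 and SNX6 fell to 0.705 and 0.724 of VEH (adjusted p = 2.2e-11 and 2.76e-11).

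The amyloid-degrading enzymes rose in 9 of 11 tested genes under SLO and 8 under SLO ½, and none fell in either. MMP2, a gelatinase that can cut amyloid-β, had 45, 55 and 48 counts in VEH, 202, 158 and 169 in SLO ½ and 338, 367 and 332 in SLO. Its log2 change was 2.85 in SLO (edgeR adjusted p = 4.72e-18) and 1.79 in SLO ½ (adjusted p = 8.25e-12). PLAU, the urokinase plasminogen activator, was 3.28-fold above VEH in SLO ½ and 2.78-fold in SLO, and SLO was below SLO ½ (log2 change −0.24, adjusted p = 0.00138). ECE1, an endothelin-converting enzyme, rose 1.53-fold in SLO (adjusted p = 7.21e-14). The median log2 change of the list was 0.31 in SLO and 0.34 in SLO ½, where that of all tested genes was 0.014 and 0.0152.

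Lipoprotein receptors and genes that load lipid on APOE and CLU rose in 11 of 15 tested genes in SLO, with 3 lower, and in SLO ½ 8 rose and 2 fell. PLTP, which transfers phospholipid between lipoproteins, rose from 33.0 ± 2.24 CPM in VEH to 74.0 ± 4.67 in SLO ½ and 149.9 ± 5.07 in SLO, a log2 change of 2.18 in SLO (edgeR adjusted p = 1.38e-23). ABCA7, a lipid transporter and Alzheimer risk gene, rose 4.14-fold (adjusted p = 4.5e-19), and the receptor SCARB1 2.34-fold (adjusted p = 3.16e-17). Among the genes that fell in SLO were the APOE receptor LRP8 and the sterol-sensing receptor NR1H2, named after their values were seen. LRP8 went from 24.5 ± 1.97 CPM in VEH to 15.2 ± 1.04 (SLO ½) and 13.0 ± 1.33 (SLO), with a log2 change in SLO of −0.91 (adjusted p = 2.74e-10). NR1H2 changed by −0.19 in SLO (adjusted p = 0.0247).

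**Figure D4:**
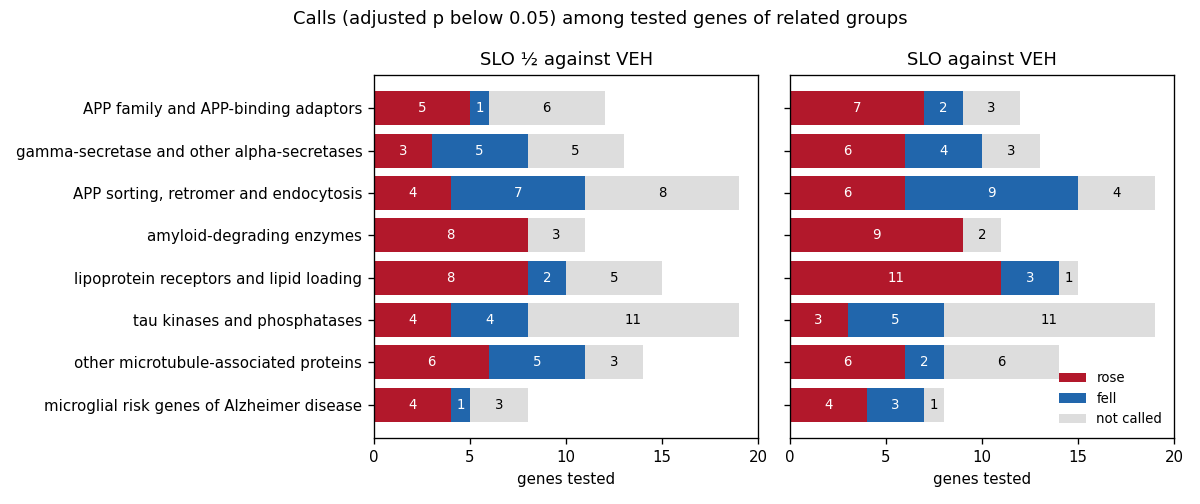
Number of tested genes (horizontal axis) in each of 8 lists of related genes that rose, fell or were not called (edgeR adjusted p below 0.05) in SLO ½ and SLO against VEH. None of the amyloid-degrading enzymes fell, with 9 of 11 higher in SLO, whereas 11 of 19 tau kinases and phosphatases were not called. Of all tested genes 64.9% were called in SLO and 52.0% in SLO ½.

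Tau kinases and phosphatases were called in 8 of 19 genes in each dose, 42.1%, below the 64.9% and 52.0% of all tested genes. In SLO 3 rose and 5 fell, and with library size only 7 rose and 4 fell. In SLO ½ the split was 4 and 4, and 5 and 2 with library size only, 1 and 6 with limma on log2(TPM + 1), and 5 genes in all were called without VEH replicate 2. FYN, a kinase that binds tau, rose 1.42-fold in SLO (edgeR adjusted p = 3.75e-09). PPP2R1A and PPP2R2A, subunits of the phosphatase that dephosphorylates tau, fell to 0.833 (adjusted p = 1.78e-06) and 0.855 (adjusted p = 5.09e-05) of VEH. Its catalytic subunits PPP2CA and PPP2CB were not called in SLO (folds 0.945 and 1.047, edgeR adjusted p = 0.0775 and 0.179). PPP2CB was higher in SLO ½ (fold 1.098, adjusted p = 0.00991).

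Among the other microtubule-associated proteins, 6 of 14 rose and 2 fell in SLO (8 and 1 with library size only), and 6 rose and 5 fell in SLO ½ (6 and 3 with library size only). MAPRE2, which binds microtubule ends, rose 3.19-fold in SLO (edgeR adjusted p = 1.38e-17) and MAP1B 2.30-fold (adjusted p = 1.12e-15). MAP2, a dendritic relative of tau, had 3, 0 and 3 counts in VEH, 16, 14 and 15 in SLO ½ and 45, 48 and 47 in SLO. It passed the filter only through the treated groups, so its place among the 6 higher genes in each dose is a description. Beside these, the summed TPM of the neuron marker list was 4.46 to 4.92 (VEH), 6.95 to 7.78 (SLO ½) and 10.1 to 10.7 (SLO). Of its 12 genes 7, RBFOX3, DCX and STMN2 among them, had at most 3 counts in every library. Of its 5 tested genes, 4 were called higher in SLO and 3 in SLO ½, and none lower. Those higher in both doses were ELAVL3, SNAP25 and TUBB3. Among all tested genes 32.9% were called higher in SLO and 26.7% in SLO ½. The part of the neuron marker genes in the values of the microtubule-associated proteins was not tested.

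Only 8 of 20 listed microglial risk genes of Alzheimer disease could be tested, 4 higher and 3 lower in SLO and 4 higher and 1 lower in SLO ½. With at least 10 counts required in every library, 5 remained testable and 4 were called in SLO. GRN, which encodes the lysosomal protein progranulin, rose 1.83-fold in SLO (edgeR adjusted p = 1.49e-16), and the signalling enzymes PLCG2 and INPP5D 2.39-fold (adjusted p = 1.27e-09) and 2.56-fold (adjusted p = 1.55e-06). TREM2, a microglial receptor for APOE and CLU, had 4 to 6 counts in VEH libraries, against 13 to 20 (SLO ½) and 12 to 15 (SLO). It was below 0.608 CPM in every VEH library and passed the filter only through the treated groups, so its place among the 4 higher genes is a description.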

How the data were processed

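RNA of HMC3 cells was sequenced in 9 poly-A selected KAPA RNA HyperPrep libraries, 3 each of VEH, SLO ½ and SLO, grouped by their labels. The authors used Trimmomatic 0.38 for trimming and STAR 2.7.1a for alignment to GRCh38, and deposited whole-number read counts per gene from STAR. TPM were also deposited by the authors, for the same genes; how gene length was set is not given in the sources used here, nor is the annotation release. Coordinates are those of the deposited tables. STAR's summary lines (0.883% to 0.984% of reads unmapped, multimapping 7.16% to 8.52%, no feature 5.54% to 8.38%, ambiguous 3.03% to 3.26%) were left out.

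In R 4.3.3, edgeR 4.0.16 was run on the counts of 14727 of the 32299 detected genes (those that passed filterByExpr), with TMM factors (0.968 to 1.035), a model of 3 groups and quasi-likelihood tests, adjusted over all tested genes. CPM used the TMM factors, and SEs came from the fold change and F statistic. The scripts were tested on simulated counts. Alternatives were DESeq2 1.42.0 or its size factors, scaling by library size only, no filter or a minimum of 10 counts in all libraries, a fit to the 2 groups compared, a replicate block, limma 3.58.1 on deposited TPM (log2 with pseudocount 1 or 0.1, the former also without the filter), and leaving out each library. Fold changes on a log2(TPM + pseudocount) scale understate changes of low genes.

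The members and lists were chosen with earlier results of these data known. Named were all members, the top 3 genes by p of each list (SLO against VEH), and the 3 genes nearest in pattern to members with an absolute log2 change of at least 1. LRP8, NR1H2, TREM2, PPP2CA and PPP2CB were added after their values were seen. Some genes are not reported here. The study's own differential results were not used. Replicate libraries were not duplicates (chi-square over its degrees of freedom 1.77 to 4.06). Nothing names separate cultures, so p-values measure the spread between these libraries, which may be technical. At 14834295 to 19674841 gene counts per library, 10 counts correspond to 0.522 to 0.665 CPM.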

Additional observations from a re-analysis of the deposited data

How the results depend on the processing

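Over 378 recomputed member values, 357 kept their direction and their side of the threshold, 7 lost a call, 8 gained one and 6 changed sign. No change of sign touched a called value. ADAM10 in SLO ½ against VEH went to −0.01718 with limma on log2(TPM + 1), with or without the filter, and to −0.01736 on log2(TPM + 0.1), and spanned −0.003651 (without SLO ½ replicate 3) to 0.03671 with 1 library left out. PSEN2 in the same comparison went to −0.1367 without VEH replicate 2 and spanned −0.2486 (without SLO ½ replicate 1) to 0.3993 with 1 library left out. The cause was not tested. The lost calls were those of PSEN2 (6) and SORL1 (1) in SLO against VEH, where adjusted p ranged from 0.0109 to 0.199 and from 0.000774 to 0.0881 over all alternatives. The gained calls were PSEN2 (5) and SORL1 (3) in SLO against SLO ½, where adjusted p ranged from 0.023 to 0.34 and from 0.0392 to 0.334. Members called ranged from 6 to 8 in SLO against VEH and from 4 to 5 in SLO ½ against VEH. In SLO against SLO ½ they ranged from 5 to 7. With each library left out, the ranges were 7 to 8, 5 to 5 and 5 to 6. With at least 10 counts required in every library, APOE and PSEN2 could not be tested. The 4 in SLO ½ against VEH reflects the absence of APOE there, since APOE kept its call wherever it was tested (adjusted p at most 4.38e-05 over the alternatives). Replicate numbers are shared between groups, and the labels do not say whether same-numbered libraries belong together. The deviations of same-numbered libraries correlated by 0.00277 to 0.0873, all positive, and those of differently numbered ones by −0.0621 to 0.037. With 3 libraries a group, these values cannot settle whether a number marks a shared batch or culture. With the replicate block 8, 5 and 5 members were called, as without it. Calls among all genes were then 9622, 7749 and 6162, against 9565, 7663 and 6056. Among lists, microglial risk genes called in SLO fell from 7 to 4 with at least 10 counts in every library, and in SLO ½ from 5 to 3 with unfiltered limma, where the other microtubule-associated proteins fell from 11 to 7. In SLO against SLO ½, the sorting list fell from 9 to 5 without SLO ½ replicate 1 or SLO replicate 3, and the microglial risk genes from 5 to 3 with at least 10 counts and to 2 with unfiltered limma. Library size only moved the median log2 change of all genes to 0.0888 in SLO (0.014 with TMM) and 0.0652 in SLO ½ (0.0152 with TMM). Depth limits PSEN2, MAPT, SORL1 and APOE in VEH, where a library held 5 to 23 counts of each.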
